A study of Mus musculus with 5 samples.

Results

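The core circadian clock genes were examined in Akt/NICD liver tumors with and without late Prox1 overexpression. They comprised 10 genes chosen by symbol, namely Arntl (Bmal1 in newer annotation), Clock, Npas2, Per1, Per2, Per3, Cry1, Nr1d1, Nr1d2 and Dbp. Each mapped to 1 of the 55397 Ensembl genes listed, and all 10 passed the filter on low values that left 17105 genes to test, with between 299 and 4057 reads per library. They were taken by name with no threshold on a measured value, and they and every gene list below were chosen with earlier results of these data known.

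RNA was sequenced in bulk from 5 dissected tumors, 2 Control and 3 with Prox1 overexpression (Prox1 OE). All mice were female C57BL/6N, injected by the tail vein at 8 weeks of age with 4 µg of a CMV-driven Sleeping Beauty transposase plasmid and 10 µg of EF1a-driven transposons carrying AKT and NICD, the active fragment of the Notch receptor, the latter followed by rtTA. Hydrodynamic injection delivers plasmid mainly to hepatocytes, and this oncogene pair yields tumors with features of bile duct cancer. Prox1 OE mice additionally received 10 µg of a doxycycline-responsive Tre plasmid with FLAG-tagged mouse Prox1 and GFP, and Control mice the same plasmid with GFP alone. A diet with 6.25% doxycycline hyclate from day 21 was used to switch on the transgene between weeks 3 and 4. Tumors were taken either a week later or at a humane endpoint, and the labels say neither which applied to which tumor nor at what time of day any was collected. Nothing in the labels says whether 2 tumors came from 1 mouse, so p-values measure the spread between these samples only.

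In every cell with a clock, the ARNTL protein pairs with CLOCK or its relative NPAS2, binds E-box sequences and switches on Per, Cry, Nr1d1, Nr1d2 and Dbp. PER and CRY proteins then return to the nucleus and block that pair, and the REV-ERB proteins, made from Nr1d1 and Nr1d2, repress Arntl, Clock and Npas2 through ROR elements. In mouse liver the transcripts of Nr1d1 and Dbp peak in the light phase, those of the Per genes follow, and those of Arntl and Npas2 peak at about the opposite time, so that the balance of these genes in a single sample depends on the hour at which it was taken. The liver clock is further set by feeding, glucocorticoids and body temperature, and it drives daily rhythms of bile acid, heme, lipid and glycogen metabolism.

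Recovered totals were 48740863 to 56629477 reads per library. Prox1, the overexpressed gene, stood at 4153 and 4664 normalized counts in Control replicates 1 and 2 and at 48090, 11113 and 8231 in Prox1 OE replicates 1, 2 and 3. All Prox1 OE libraries were above both Control libraries, but replicate 1 was 4.33 times replicate 2, and the log2 difference of 1.90 (SE 0.66) had an adjusted p of 0.061 by limma, with 2.36 and 0.047 by edgeR, which called it higher, and 2.35 and 0.065 by DESeq2. Without replicate 1 it was 1.12 (adjusted p = 0.0056 by limma), and without replicate 3 it was 2.39 (adjusted p = 0.032). The tissue label names transformed hepatocytes. A call here means an adjusted p under 0.05 by limma on log2(normalized count + 1), adjusted over all 17105 genes tested, of which 17.1% were called higher and 16.2% lower in Prox1 OE. Of 9 hepatocyte markers 7 were called higher and of 9 cholangiocyte markers 8 were called lower. The summed hepatocyte markers ran from 1181845 to 1747973 normalized counts in Control and from 3577456 to 5155406 in Prox1 OE, highest in replicate 3. The summed cholangiocyte markers ran from 758460 to 827494 in Control and from 523663 to 707622 in Prox1 OE. Other cell types moved as well, with stellate cell and fibroblast markers at 4 of 8 lower and 2 higher (sums of 121992 to 125853 in Control and 67834 to 79899 in Prox1 OE), Kupffer cell markers at 3 of 6 higher (6501 to 9470 and 15538 to 24643) and lymphocyte markers at 3 of 5 higher (146 to 179 and 286 to 330). Endothelial markers were at 2 of 6 higher, erythroid markers at 1 of 5 higher and neutrophil and monocyte markers at 0 of 5 called by limma (0 at an unadjusted p under 0.05). Of 6 pancreatic acinar markers 3 could be tested, 2 higher and 1 lower. In bulk tissue, fewer cells of a type and less RNA per cell cannot be told apart, and the part of cell composition in the clock gene values was not tested.

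To see which clock motifs sit near the starts of these genes, the RefSeq windows from 250 bases before to 50 bases after a transcript start (build GRCm38.p6, the sequence of mm10) were searched on both strands. Of the 10 genes, 9 had such windows, 13 in all, and Per2 had none. The letters searched were CACGTG (E-box), CACGTT (E-prime box), TTATGTAA or TTACGTAA (D-box, bound by DBP and NFIL3) and TAGGTCA (ROR element, bound by ROR and REV-ERB proteins), and no match overlapped another. The windows with a match are shown because they hold the letters searched, and binding at them was not tested. Each match is in capitals, read 5′ to 3′ on the gene's strand.
Per1, chr11:69098699-69098998, plus strand: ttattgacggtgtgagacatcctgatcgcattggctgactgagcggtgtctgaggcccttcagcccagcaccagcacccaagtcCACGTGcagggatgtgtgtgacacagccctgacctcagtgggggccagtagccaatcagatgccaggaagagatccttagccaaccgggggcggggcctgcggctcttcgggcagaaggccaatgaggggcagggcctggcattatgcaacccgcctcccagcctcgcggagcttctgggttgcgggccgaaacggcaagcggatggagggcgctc
Cry1, chr10:85185005-85185304, minus strand: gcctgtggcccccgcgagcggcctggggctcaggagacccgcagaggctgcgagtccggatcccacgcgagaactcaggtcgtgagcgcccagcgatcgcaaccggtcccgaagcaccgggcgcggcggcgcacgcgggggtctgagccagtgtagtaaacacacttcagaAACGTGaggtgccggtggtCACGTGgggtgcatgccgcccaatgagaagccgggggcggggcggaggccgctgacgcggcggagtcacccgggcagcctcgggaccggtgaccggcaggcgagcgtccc
Nr1d1, chr11:98775328-98775627, minus strand: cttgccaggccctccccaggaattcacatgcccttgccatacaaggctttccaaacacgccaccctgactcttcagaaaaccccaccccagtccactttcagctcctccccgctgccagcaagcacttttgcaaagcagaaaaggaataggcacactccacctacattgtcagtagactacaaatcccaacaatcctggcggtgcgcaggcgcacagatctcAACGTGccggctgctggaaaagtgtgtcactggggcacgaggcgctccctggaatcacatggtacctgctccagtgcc
Per3, chr4:151044616-151044915, minus strand: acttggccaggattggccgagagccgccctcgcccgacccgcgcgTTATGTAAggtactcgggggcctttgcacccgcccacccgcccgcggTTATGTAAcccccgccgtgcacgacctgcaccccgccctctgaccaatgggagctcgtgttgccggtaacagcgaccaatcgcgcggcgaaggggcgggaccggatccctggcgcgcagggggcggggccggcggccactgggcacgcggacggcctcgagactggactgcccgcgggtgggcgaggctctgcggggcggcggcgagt
Arntl, second start, chr7:113207261-113207560, plus strand: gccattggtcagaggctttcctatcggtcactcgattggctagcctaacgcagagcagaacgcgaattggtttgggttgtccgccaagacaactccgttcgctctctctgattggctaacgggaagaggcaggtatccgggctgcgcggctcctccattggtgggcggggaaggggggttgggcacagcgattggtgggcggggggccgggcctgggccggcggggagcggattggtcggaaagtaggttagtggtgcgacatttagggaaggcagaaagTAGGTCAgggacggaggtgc

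An E-box lay 166 bases before the Per1 start and another 60 bases before that of Cry1. An E-prime box, read as AACGTG on the gene's strand, lay 79 bases before the Cry1 start and 28 bases before that of Nr1d1. Per3 held a pair of D-boxes, 205 and 158 bases before its start, and the second Arntl window held a ROR element 31 bases after its start. Among 32817 RefSeq windows of this kind, 7.15% held the E-box, 4.69% the E-prime box, 1.05% a D-box and 2.61% the ROR element. Windows on a chromosome that holds none of the clock genes studied were left out of that set. These matches describe letters only, and windows without one may have elements elsewhere.

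Between Prox1 OE and Control, 2 of the 10 clock genes were called, Per2 and Nr1d1, both higher. Of all genes tested 33.3% were called, 17.1% higher and 16.2% lower. No clock gene was called lower by limma (0 of 10), with 1 lower at an unadjusted p under 0.05, which was Clock. By edgeR 0 of 10 were called lower, beside 15.7% of all genes, and by DESeq2 Clock alone was, beside 18.6%. In 5 of the 10 genes the groups did not overlap, against 63.3% of all genes tested. The median log2 fold change of the 10 was -0.044, beside -0.015 for all genes tested. The share of clock genes called, 20%, was thus no higher than that of all genes.

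**Figure D1:**
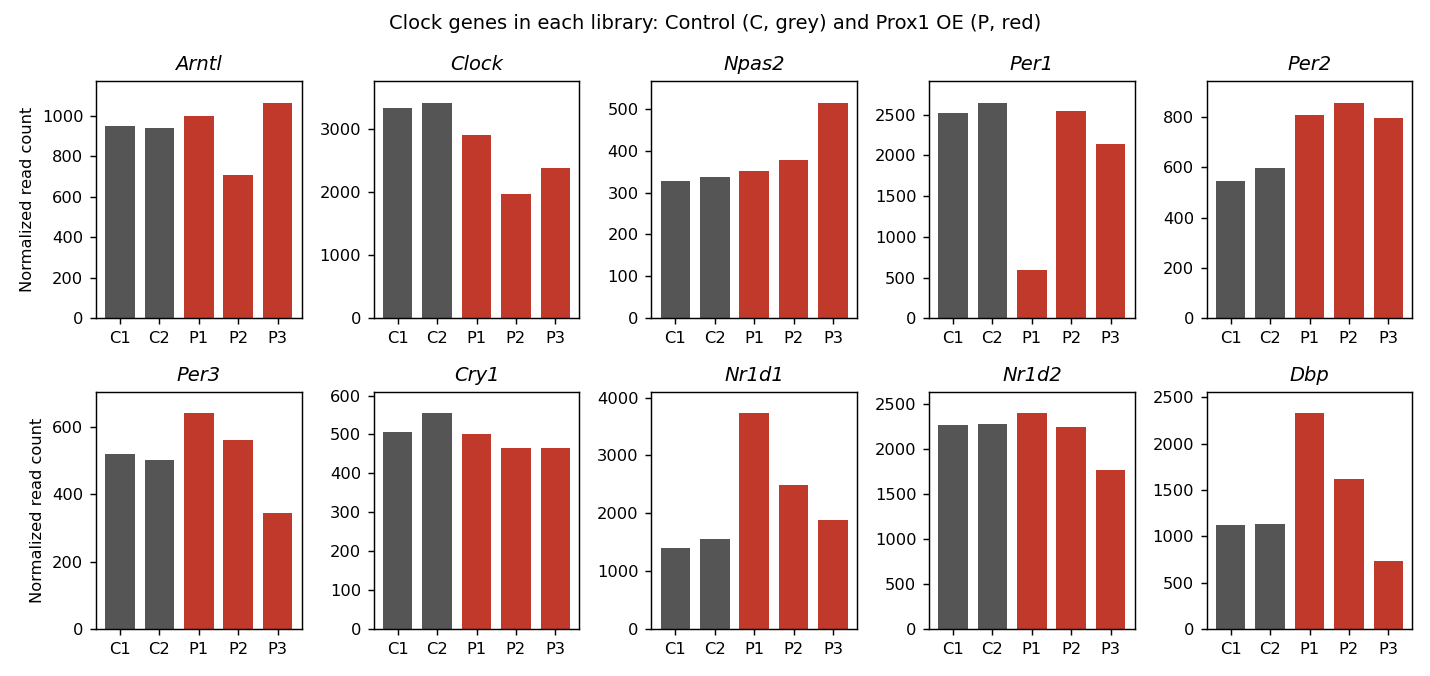
Normalized read count (y axis, linear, from 0, a separate scale for each gene) of the 10 clock genes in each library (x axis), with Control replicates 1 and 2 in grey and Prox1 OE replicates 1 to 3 in red. Each bar is 1 library, so no error bar is drawn. The Control pair is nearly level for every gene, Per1 is low in Prox1 OE replicate 1 alone, and Dbp runs from 2328 in replicate 1 to 738 in replicate 3.

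In the positive arm, none of the 3 genes was called, and they did not move as 1 group. Arntl, the obligate partner in the activating pair, stood at 951 and 938 normalized counts in Control replicates 1 and 2 and at 998, 706 and 1065 in Prox1 OE replicates 1, 2 and 3. Replicate 2 was below both Control libraries and the others above, so the groups overlapped. The mean was 945 ± 9.21 (SD, n = 2) in Control and 923 ± 191 (n = 3) in Prox1 OE, a log2 fold change of -0.057 (95% interval -0.50 to 0.39, adjusted p = 0.840 by limma).

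Clock encodes the partner of ARNTL in the activating pair. It stood at 3333 and 3415 in Control and at 2901, 1961 and 2371 in Prox1 OE replicates 1, 2 and 3. All of the latter were below both Control libraries, with replicate 2 the lowest. The log2 fold change of -0.50 (SE 0.17, interval -0.90 to -0.11) had an adjusted p of 0.055 by limma, 0.058 by edgeR and 0.041 by DESeq2. It was not called by the limma test used throughout, and was called without Prox1 OE replicate 1 (-0.65, adjusted p = 0.0099).

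Npas2, which can stand in for Clock, stood at 328 and 338 in Control and at 353, 378 and 515 in Prox1 OE replicates 1, 2 and 3. All 3 Prox1 OE libraries were above Control, with replicate 3 well apart from the other two. The log2 fold change was 0.30 (SE 0.20, interval -0.17 to 0.77, adjusted p = 0.287 by limma), 0.13 without replicate 3 and -0.13 when the total read count set the scale.

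Among the Per and Cry genes, whose proteins close the negative loop, Per2 was called and Per1, Per3 and Cry1 were not. Per2 (ENSMUSG00000055866, chr1:91415982-91459324, minus strand) stood at 544 and 595 in Control replicates 1 and 2 and at 806, 857 and 794 in Prox1 OE replicates 1, 2 and 3. The 3 Prox1 OE libraries lay close together and above Control, and the lowest of them was 1.33 times the higher Control library. The mean was 569 ± 36.2 (n = 2) in Control and 819 ± 33.3 (n = 3) in Prox1 OE, 1.44 times higher, with a log2 fold change of 0.52 (SE 0.13, interval 0.22 to 0.83). The adjusted p was 0.021 by limma, 0.0199 by edgeR and 0.00185 by DESeq2. The call was lost without Control replicate 1 (0.46, adjusted p = 0.203), without Control replicate 2 (0.59, adjusted p = 0.104), without Prox1 OE replicate 2 (0.49, adjusted p = 0.062) and with the total read count as scale (0.093, adjusted p = 0.668).

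Per1 (ENSMUSG00000020893, chr11:69095217-69109960, plus strand) stood at 2526 and 2650 in Control and at 593, 2552 and 2146 in Prox1 OE replicates 1, 2 and 3. Replicate 1 alone was low, at 0.276 of the next lowest library, while replicate 2 lay within the Control range. The low value rested on 580 reads, so it was far above the 3 reads taken as a floor. The log2 fold change of -0.80 (SE 0.56, interval -2.10 to 0.50, adjusted p = 0.297 by limma) became -0.14 (adjusted p = 0.349) without that library. Of the 17105 genes tested, 12 (0.0702%) were at least as far below their next lowest library in Prox1 OE replicate 1, and among genes with a mean of at least 300 normalized counts Per1 was the only 1. The same count was 50 genes in replicate 2 and 39 in replicate 3, with 1 gene of that mean in each. These counts were made after the Per1 value had been seen. The ratio of Per1 to Per2 counts was 4.65 and 4.45 in Control and 0.736, 2.98 and 2.70 in Prox1 OE.

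Per3, the Per gene with the pair of D-boxes shown above, stood at 521 and 501 in Control and at 641, 562 and 346 in Prox1 OE replicates 1, 2 and 3. Replicates 1 and 2 were above both Control libraries and replicate 3 was below them. These opposite values left a log2 fold change of -0.032 (SE 0.26, interval -0.64 to 0.58, adjusted p = 0.938 by limma), which was 0.23 without replicate 3.

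Cry1, which encodes a main repressor of the CLOCK and ARNTL pair, stood at 506 and 554 in Control and at 500, 466 and 466 in Prox1 OE. The groups did not overlap, although the highest Prox1 OE library, replicate 1, was at 0.988 of the lowest Control library. The log2 fold change was -0.15 (SE 0.14, interval -0.48 to 0.18, adjusted p = 0.444 by limma). It was -0.084 without Control replicate 2, and -0.58 and called lower (adjusted p = 0.026) with the total read count as scale. Cry1 and Per2 were the 2 clock genes whose range among the Prox1 OE libraries, 0.10 and 0.11 on the log2 scale, was no wider than among the Control libraries (0.13 in both).

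Of the REV-ERB pair, Nr1d1 was called higher and Nr1d2 was not called. Nr1d1 (ENSMUSG00000020889, chr11:98767932-98775333, minus strand) stood at 1399 and 1559 in Control replicates 1 and 2 and at 3729, 2485 and 1877 in Prox1 OE replicates 1, 2 and 3. All Prox1 OE libraries were above Control, from 1.20 times the higher Control library in replicate 3 to 2.52 times the Control mean in replicate 1. The mean was 1479 ± 113 (n = 2) in Control and 2697 ± 944 (n = 3) in Prox1 OE, with a log2 fold change of 0.81 (SE 0.26, interval 0.20 to 1.42).

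The adjusted p of Nr1d1 was 0.0485 by limma, 0.0399 by edgeR and 0.0078 by DESeq2, and over the fits that left out a library it ran from 0.016 to 0.219. It was above 0.05 and the call lost without Control replicate 1 (0.219), without Control replicate 2 (0.135) and without Prox1 OE replicate 2 (0.115), with the log2 fold change at 0.73, 0.89 and 0.84. The call was also lost with no filter (0.087), without the mean-variance trend (0.109) and with the total read count as scale, where the log2 fold change was 0.38 (adjusted p = 0.299). Nr1d1 shares 263 bases of exon, 8.55% of its exon length, with the oppositely transcribed Thra. The library kit kept strand, but the strand setting of the count is not given in the sources used here, so reads from the shared stretch cannot be told apart.

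Nr1d2, the close relative of Nr1d1, stood at 2271 and 2275 in Control and at 2399, 2244 and 1773 in Prox1 OE replicates 1, 2 and 3. Replicate 1 was above, and replicates 2 and 3 below, both Control libraries. The log2 fold change was -0.10 (SE 0.15, interval -0.45 to 0.25, adjusted p = 0.638 by limma), and 0.030 without replicate 3.

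Dbp encodes a PAR bZIP activator that carries the rhythm to D-box genes and is among the most strongly cycling transcripts of the liver. The gene (ENSMUSG00000059824, chr7:45705088-45710203, plus strand) stood at 1123 and 1135 in Control and at 2328, 1617 and 738 in Prox1 OE replicates 1, 2 and 3. Replicate 1 was 2.06 times the Control mean and replicate 3 was 0.654 of it, so the libraries of 1 group lay on either side of Control. The log2 fold change of 0.32 (SE 0.42, interval -0.66 to 1.29, adjusted p = 0.588 by limma) was 0.78 (adjusted p = 0.030) without replicate 3 and -0.047 (adjusted p = 0.924) without replicate 1. Dbp shares 539 bases of exon, 18.0% of its exon length, with the oppositely transcribed Sphk2, with the same limit on reads from that stretch.

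The spread of each gene within a group was then set beside that of all genes. In Control, the range between the 2 libraries was at most 0.16 on the log2 scale for every clock gene, with a median of 0.051 against 0.14 for all genes tested. Among the 3 Prox1 OE libraries the median range was 0.58 against 0.42 for all genes, and the ranges of 2 and of 3 libraries are not like for like. Per1 had a Prox1 OE range of 2.10, which 1.75% of all genes reached, and Dbp one of 1.66, which 3.78% reached. Among genes with a mean of at least 300 normalized counts those shares were 0.251% and 0.700%. Nr1d1 (0.99) and Per3 (0.89) were next, at 13.6% and 16.8% of all genes. Among the genes with a mean of at least 300, their shares were 3.47% and 4.76%. The median range of such genes was 0.10 in Control and 0.33 in Prox1 OE.

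**Figure D2:**
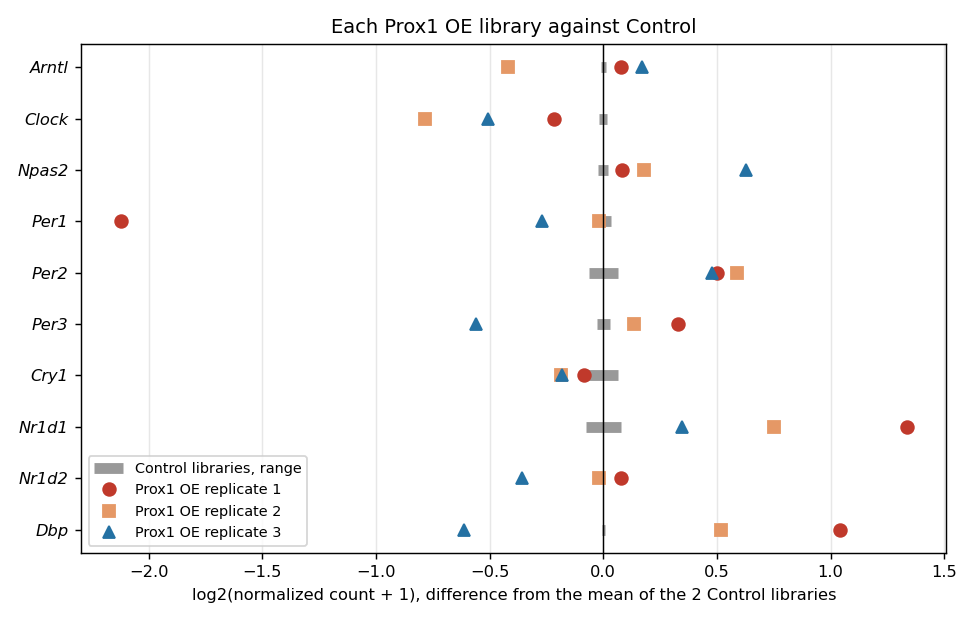
Difference of each Prox1 OE library from the mean of the 2 Control libraries on the scale of log2(normalized count + 1) (x axis) for the 10 clock genes (y axis). Grey bars span the 2 Control libraries, circles are Prox1 OE replicate 1, squares replicate 2 and triangles replicate 3. For Dbp the libraries lie at 1.04, 0.52 and -0.61, for Npas2 the triangle is farthest to the right at 0.63, and for Per2 all 3 symbols sit together at 0.48 to 0.59.

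Read library by library, the clock genes lay on both sides of Control in each Prox1 OE library. Replicate 1 was above both Control libraries for 7 of the 10 genes and below for 3, replicate 2 above for 5 and below for 4, and replicate 3 above for 4 and below for 6. Over all genes tested, the share above both Control libraries was 42.7% in replicate 1, 44.2% in replicate 2 and 45.1% in replicate 3, and the share below both was 45.0%, 44.9% and 46.2%. With only 10 genes, replicates 2 and 3 were near these shares, and replicate 1 had more genes above and fewer below. Per3, Nr1d1, Nr1d2 and Dbp had the same order, highest in replicate 1 and lowest in replicate 3, an order held by 21.0% of all genes. Npas2 had the opposite order, held by 21.0% as well.

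To put this in 1 value per library, the mean log2 level of Arntl, Clock and Npas2 was taken minus that of Nr1d1, Nr1d2, Per3 and Dbp, a difference in which the scale of the library nearly cancels. Per1, Per2 and Cry1, which peak between these sets, were not used. The 4 output genes are also the 4 with the shared order above, so this difference partly restates that order and is a description. The positive arm entered as well. In Prox1 OE replicate 2, Arntl was at -0.42 and Clock at -0.78 from the Control mean on the log2 scale. The difference was -0.20 and -0.21 in Control replicates 1 and 2. In Prox1 OE it was -0.92 in replicate 1, -0.90 in replicate 2 and 0.18 in replicate 3. Replicates 1 and 2 were below both Control libraries and replicate 3 was above them. The group values were -0.21 ± 0.0066 (SD, n = 2) and -0.55 ± 0.63 (n = 3), and no test was run on them.

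The same values can be read as ratios of single genes. The ratio of Dbp to Npas2 counts was 3.43 and 3.36 in Control and 6.60, 4.28 and 1.43 in Prox1 OE replicates 1, 2 and 3. Nr1d1 over Arntl was 1.47 and 1.66 in Control and 3.74, 3.52 and 1.76 in Prox1 OE. In both ratios Prox1 OE replicate 3 was the lowest of its group, below both Control libraries for Dbp over Npas2 and above them for Nr1d1 over Arntl. With Nfil3, a repressor described below that does not enter the difference, Dbp over Nfil3 was 1.20 and 0.897 in Control and 1.49, 0.829 and 0.284 in Prox1 OE replicates 1, 2 and 3. There replicates 2 and 3 lay below both Control libraries and replicate 1 above, so the side of Control on which replicates 2 and 3 fell depended on the genes compared. Each ratio shares at least 1 gene with the difference, so none is separate evidence. Prox1 itself, the hepatocyte marker sum and the clock output genes varied among these same 3 libraries, and their part in the spread was not tested. Without a collection time for any tumor, a difference in clock phase between libraries cannot be told apart from other differences between them.

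**Figure D3:**
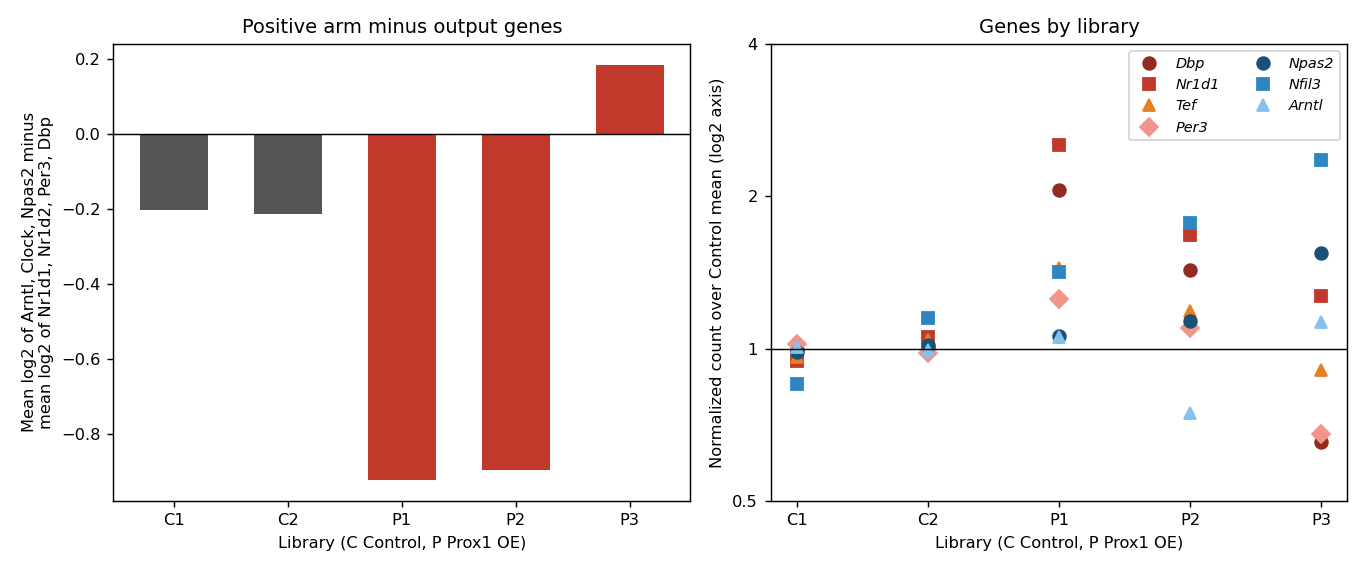
Left, mean log2(normalized count + 1) of Arntl, Clock and Npas2 minus that of Nr1d1, Nr1d2, Per3 and Dbp (y axis) in each library (x axis, C Control, P Prox1 OE), 1 bar per library from 0. Right, normalized count over the Control mean (y axis, log2 scale) of Dbp, Nr1d1, Tef, Per3, Npas2, Nfil3 and Arntl in each library, 1 symbol per gene. The Control libraries lie near 1 for all but Nfil3, and Dbp and Nfil3 change places between Prox1 OE replicates 1 and 3.

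Per kilobase of annotated exon, Nr1d1 had the highest level of the 10 genes in both groups, at 481 ± 36.7 normalized counts per kb in Control and 877 ± 307 in Prox1 OE. In Control it was followed by Per1 (460), Nr1d2 (420), Dbp (377), Clock (246), Cry1 (159), Arntl (126), Per2 (97.2), Npas2 (69.5) and Per3 (53.2). The levels of Nr1d1 and Per1 overlapped between the Control libraries, and no other neighbors in that order did. In Prox1 OE, Dbp came next after Nr1d1, at 522 ± 266, and Per1 came after Nr1d2, at 313 ± 184, but Dbp, Nr1d2 and Per1 overlapped each other. Per2 passed Arntl, at 140 against 123 per kb. In Prox1 OE the libraries of all neighbors in the order overlapped except those of Npas2 and Per3.

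Another 24 clock genes were taken from lists of further core factors, bZIP and bHLH repressors and activators, and enzymes or cofactors acting on clock proteins. Of these, 23 passed the filter, 4 were called higher, 5 lower and 14 not called, and Rorb was too low to test (at most 22.9 normalized counts). Their median log2 fold change was 0.0054. The called share of 39.1% was near that of all genes.

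Hlf, the PAR bZIP relative of Dbp, stood at 565 and 842 in Control and at 1479, 1244 and 1663 in Prox1 OE replicates 1, 2 and 3. All Prox1 OE libraries were above both Control libraries, and replicate 3 was the highest, where Dbp was lowest. Hlf was called higher (log2 fold change 1.07, SE 0.20, adjusted p = 0.0082 by limma), and not without Control replicate 1 (0.79, adjusted p = 0.074).

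Nfil3, the repressor that binds the same D-boxes as DBP, stood at 939 and 1265 in Control and at 1560, 1950 and 2604 in Prox1 OE replicates 1, 2 and 3 (log2 fold change 0.87, adjusted p = 0.025 by limma). Its call was lost without Control replicate 1 (0.66), Control replicate 2 (1.09) or Prox1 OE replicate 2 (0.89), without the trend, and with the total read count as scale (0.44). It was lowest in replicate 1 and highest in replicate 3, the reverse of Dbp. Tef, the third PAR bZIP gene, stood at 2970 and 3202 in Control and at 4455, 3669 and 2794 in Prox1 OE, the same order as Dbp, and was not called (0.21, adjusted p = 0.422, from 0.054 to 0.39 with 1 library left out). Cry2, the relative of Cry1, stood at 858 and 953 in Control and at 1391, 1193 and 1022 in Prox1 OE (0.40, adjusted p = 0.091). Bhlhe41, an E-box repressor, stood at 213 and 258 in Control and at 180, 82.6 and 74.1 in Prox1 OE, with a log2 difference of -1.17 that was not called by limma (adjusted p = 0.053). It was called lower by DESeq2 (0.031), with the total read count as scale (-1.60) and without Prox1 OE replicate 1 (-1.57, adjusted p = 0.0046).

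The genes whose products act on clock proteins held all 5 lower calls. Csnk1e and Gsk3b, kinases that phosphorylate PER and other clock proteins, had log2 fold changes of -0.70 and -0.51. Fbxw11, part of the ubiquitin ligase that removes PER, was at -0.51, Ncor1, the corepressor recruited by REV-ERB proteins, at -0.56, and Nono, a PER-binding RNA processing factor, at -0.48. Adjusted p-values of these 5 by limma were 0.024 to 0.044. All 5 calls were lost when Control replicate 1, Control replicate 2 or Prox1 OE replicate 2 was left out, and without the trend. Without Prox1 OE replicate 3 only Csnk1e was still called (adjusted p = 0.036 by limma). Gsk3b and Ncor1 also lost their calls with no filter, Ncor1 by edgeR (0.051) and Gsk3b and Nono with the replicate block. In this list 5 of 13 genes were called lower, beside 16.2% of all genes tested, and 1 higher, Fbxl15, beside 17.1%, with a median of -0.33. Fbxl15 (0.57) lost its call in the fits without either Control library, Prox1 OE replicate 2 or Prox1 OE replicate 3. Its call was also lost with no filter, without the trend, with the replicate block and with the total read count as scale (0.14). Csnk1d (-0.21), the close relative of Csnk1e, was not called, except as lower with the total read count as scale (-0.64).

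**Figure D4:**
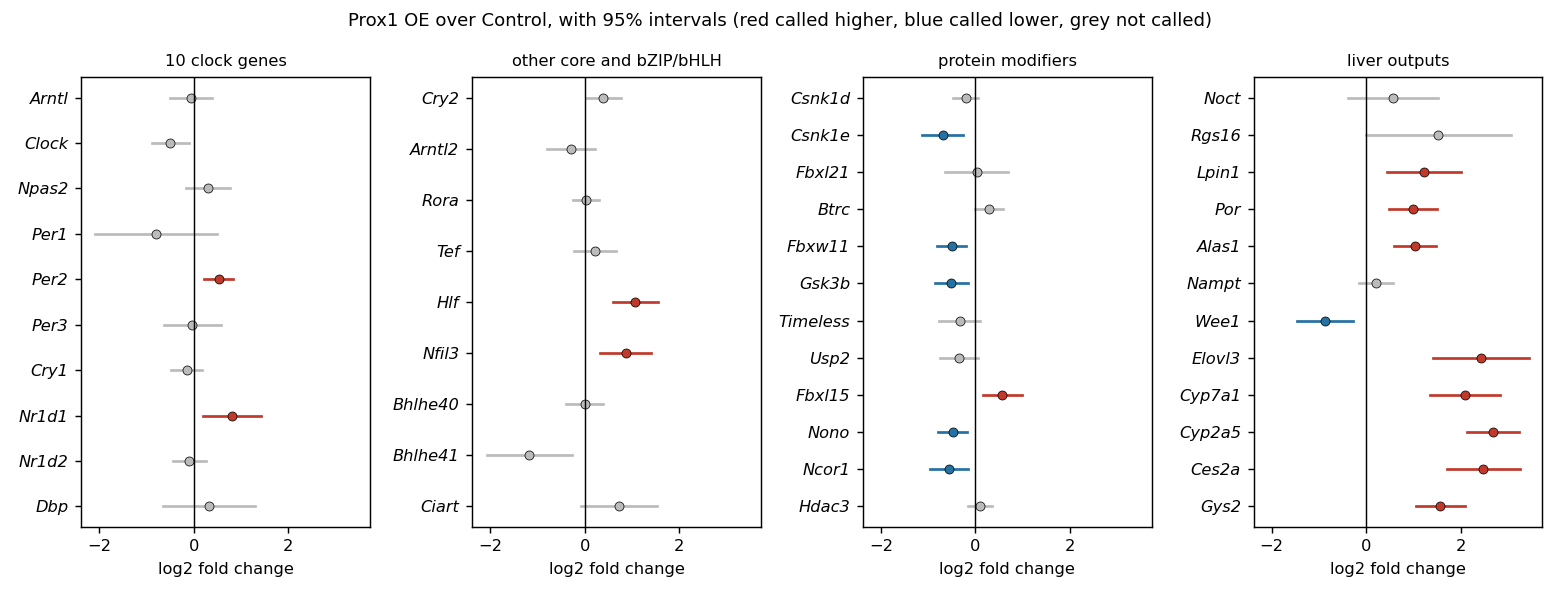
Log2 fold change of Prox1 OE over Control from limma (x axis, points) with 95% intervals (lines) for the 10 clock genes, other core and bZIP or bHLH clock genes, genes acting on clock proteins, and clock-driven liver output genes (panels), as far as they are reported here. Red marks genes called higher, blue lower and grey not called. Intervals of Per1 and Dbp are the widest of the first panel, and 8 of 12 output genes are red.

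Of 12 liver genes known to be driven by the clock, 8 were called higher and 1 lower, beside 17.1% and 16.2% of all genes tested, with a median log2 fold change of 1.37. Cyp7a1, the rate-limiting enzyme of bile acid synthesis, stood at 134 and 218 in Control and at 765, 510 and 1008 in Prox1 OE replicates 1, 2 and 3 (log2 fold change 2.09, adjusted p = 0.0042 by limma). Cyp2a5, a D-box regulated cytochrome P450, was at 2.68 and Ces2a, a carboxylesterase, at 2.48. Elovl3 (2.44), a fatty acid elongase, Gys2 (1.57), the liver glycogen synthase, Lpin1 (1.22), Alas1 (1.04), the first enzyme of heme synthesis, and Por (0.99), the electron donor of cytochromes P450, completed the higher calls. Without Control replicate 1 the calls of Lpin1 (0.88), Por (0.84), Alas1 (0.96) and Elovl3 (2.08) were lost, and without Prox1 OE replicate 2 those of Lpin1 (1.34) and Por (0.88). The Lpin1 call was also lost with no filter and without the trend. Cyp7a1, Cyp2a5, Ces2a and Gys2 were called whichever library was left out.

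Wee1, a mitotic kinase under E-box control, was called lower at -0.87 (adjusted p = 0.037 by limma), beside 5 of 6 proliferation markers called lower. Its call was lost without either Control library, without Prox1 OE replicate 2 and without Prox1 OE replicate 3 (-0.68 to -1.01). The Wee1 call was also lost with no filter and without the trend. Rgs16 (1.53), Noct (0.57) and Nampt (0.21) were not called. With 1 library left out, Rgs16 ran from 0.73 (without Control replicate 1) to 2.33 (without Control replicate 2) and Nampt between 0.12 with Prox1 OE replicate 3 left out and 0.34 with Prox1 OE replicate 2 left out. Noct was at 0.26 with Prox1 OE replicate 3 left out, and at 1.03 and called with replicate 1 left out (adjusted p = 0.0052 by limma). Most of these output genes are hepatocyte enzymes, and the 9 hepatocyte markers had a median log2 fold change of 1.69, so the part of the clock in the higher calls cannot be told apart from that of hepatocyte content. Of the 8 genes called higher, 6 were highest in Prox1 OE replicate 3, where Dbp was lowest and the hepatocyte marker sum highest. Cyp2a5 was highest in replicate 1, as Dbp was, at 64110, 41858 and 49118 in replicates 1, 2 and 3, and Por was about level in replicates 2 (9144) and 3 (9131).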

How the data were processed

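RNA was sequenced from 5 tumors as paired reads of a dUTP library, which keeps strand. Per the submitters' processing notes, STAR, mm10 and DESeq2 were used by the authors, and the counting tool is not given in the sources used here. The deposited table holds a signal per gene, reads divided by a DESeq2 size factor made by the authors. Every value was a whole multiple of 1 read (100% of values, tolerance 0.01), so reads were recovered. No column was left unassigned (0). The authors' own comparison table (mean, shrunken fold change, p-values) was not used.

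Genes with a mean normalized count of at least 10 were tested with limma 3.58.1 in R 4.3.3 (eBayes with trend, two-sided, no covariate) on log2(normalized count + 1), adjusted by Benjamini-Hochberg over all genes tested, threshold 0.05. This scale understates changes of low genes. Alternatives were edgeR 4.0.16 quasi-likelihood (5761 genes called) and DESeq2 1.42.0 (6647) on recovered reads, other scalings, pseudocounts of 0.1 and 10, no filter or a mean of at least 50, no trend, a replicate block and each library left out. With 2 against 3 libraries an exact permutation test cannot go below p = 0.1, so none was run. The floor of 3 reads was 2.46 to 3.54 normalized counts, and it covers counting error only. Symbols and coordinates came from the GENCODE annotation of GRCm38 (55137 of 55397 identifiers matched, 99.5%), and promoters from RefSeq. On simulated counts for 17105 genes in this comparison, limma recovered 58% of genes changed 2-fold and 81% of those changed 4-fold, with 17 unchanged genes called. Named genes were the 10 clock genes, always, Prox1, any gene of the fixed clock and output lists, and from the glucocorticoid, temperature and immediate early lists the 3 with the largest change among those called and any whose range is described. Counts of a list come first, except that Nfil3 and Tef are shown beside Dbp before those counts. The genes and lists were chosen with earlier results of these data known. Some genes of these lists enter the counts but are not reported here by name.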

Additional observations from a re-analysis of the deposited data

How the results depend on the processing

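Of 160 values for the 10 clock genes under 16 alternatives, 132 kept their direction and side of the threshold, 10 lost the call, 8 gained one and 10 changed sign. The changed signs were Arntl without Prox1 OE replicate 2 (0.13), Npas2 (-0.13) and Dbp (-0.11) with the total count as scale, Dbp without Prox1 OE replicate 1 (-0.047), Per3 by edgeR (0.033), by DESeq2 (0.022) and without Prox1 OE replicate 3 (0.23), Nr1d2 without Prox1 OE replicate 3 (0.030), and Per3 (0.23) and Nr1d2 (0.030) with the replicate block. Over the fits without 1 library these log2 fold changes ran from -0.17 to 0.13 for Arntl, -0.21 to 0.23 for Per3, -0.19 to 0.030 for Nr1d2 and -0.047 to 0.78 for Dbp. Cry2 (-0.032), Tef (-0.22) and Nampt (-0.22) changed sign with the total count. That scaling shifted the median over all genes tested by limma to -0.45 from -0.015 on the log2 scale, with 1472 genes called higher and 6856 lower against 2933 and 2769. Under it, 0 clock genes were called higher by limma (0 at an unadjusted p under 0.05) and 2 lower, Clock and Cry1, and of the other clock genes 2 were higher and 12 lower.

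Clock genes called higher were 1 with no filter and 1 without the trend. Clock genes called lower were 1 with upper-quartile factors (adjusted p = 0.049) and 1 by DESeq2, which was Clock. Without the trend, the other clock genes had 2 higher and 0 lower calls (6 lower at an unadjusted p under 0.05), against 4 and 6 by DESeq2. With 1 library left out, the genes called ran from 1449 to 7491, the clock genes called higher from 0 to 3 and lower from 0 to 1, and the other clock genes called higher from 1 to 4 and lower from 0 to 6. The lowest counts came without Control replicate 1 (1449) and without Control replicate 2 (2336), where the lone Control library is assumed to vary like the Prox1 OE libraries. With Control replicate 1, Control replicate 2 or Prox1 OE replicate 2 left out, no clock gene was called higher (0, 2 and 2 at an unadjusted p under 0.05) and no other clock gene lower (4, 4 and 7). The positive arm minus output difference kept its sign in every library with pseudocounts of 0.1 and 10.

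The shared replicate numbers gave only 2 pairs, with correlations of deviations of 0.14 and 0.016, and no label ties a number to a shared animal or day, so they were not taken as pairing. A fit with the replicate block gives no weight to Prox1 OE replicate 3. It called 5187 genes, of which 4825 were shared with the fit without it, and 4 clock genes, Per2, Nr1d1 and Dbp (0.78) higher and Per1 (-1.07, adjusted p = 0.047) lower, so 1 clock gene was lower, and 3 of the other clock genes were lower. Every clock gene value rested on at least 299 reads.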

Other observations

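Lists of genes that respond to signals known to set the liver clock were read in the same libraries. Of 9 glucocorticoid-responsive genes, 2 were called higher in Prox1 OE, beside 17.1% of all genes tested, and 7 were not called, with a median log2 fold change of 0.24. Tat, a tyrosine-degrading liver enzyme, stood at 3744 and 5723 normalized counts in Control replicates 1 and 2 and at 12552, 37573 and 59699 in Prox1 OE replicates 1, 2 and 3 (log2 fold change 2.72, adjusted p = 0.012 by limma). The Tat call was lost without Control replicate 1 (2.41) and without Prox1 OE replicate 2 (2.56). Dusp1, a phosphatase acting on MAP kinases, was at 0.55 (adjusted p = 0.045), and its call was lost without either Control library, Prox1 OE replicate 2 or Prox1 OE replicate 3 (0.43 to 0.56), with no filter, without the trend, with the replicate block and with the total read count as scale (0.12). Tsc22d3, which encodes the glucocorticoid-induced leucine zipper, stood at 3993 and 3697 in Control and at 2861, 7837 and 11276 in Prox1 OE and was not called (0.72, adjusted p = 0.298). It was 0.30 without Prox1 OE replicate 3, and 1.29 and called without replicate 1 (adjusted p = 0.0052). Noct stood at 601 and 664 in Control and at 495, 1160 and 1446 in Prox1 OE. Tsc22d3, Per1, itself a glucocorticoid-responsive gene, and Noct, from the output list, were each below both Control libraries in Prox1 OE replicate 1. So were 45.0% of all genes tested, while Tat was above both there. Tsc22d3 and Noct were above both Control libraries in replicates 2 and 3, while Per1 was not. The other genes of the glucocorticoid list are not reported by library here. The relation between these values was not tested.

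Of 8 temperature-responsive genes, 2 were called lower, beside 16.2% of all genes tested, with a median of -0.22. They were Hspa1a, an inducible heat shock chaperone (-2.15, adjusted p = 0.014 by limma), and Rbm3, an RNA-binding protein induced by cold (-0.86, adjusted p = 0.018). Both calls were lost without Control replicate 1, that of Hspa1a also without Prox1 OE replicate 2 and that of Rbm3 also without Control replicate 2. Of 8 immediate early genes, 1 was called lower, beside the same share of all genes, with a median of -0.36. It was Ier2 (-0.49, adjusted p = 0.040 by limma), which of the fits with 1 library left out kept its call only in that without Prox1 OE replicate 2.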
